A study of Mus musculus with 31 samples.

Results

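Experiment 2 of the study measured brain RNA 3 h after neonatal hypoxia-ischemia (HI) in mice given magnesium sulfate (MgSO4) beforehand, on 2-colour Agilent arrays. It comprised 3 arrays (replicates 1 to 3) of the 31 in the series, selected by their titles. The animals were NMRI mice, an outbred stock, aged 5 days, which underwent ligature of the right carotid artery followed by hypoxia, and the MgSO4 dose was 600 mg/kg. Each channel held RNA pooled from the ipsilateral hemispheres of 6 pups, so that an array is 1 pool against another and n counts pools. The labels describe pools of mixed sex and a subcutaneous injection, whereas the methods describe sex-matched pools and an intraperitoneal injection.

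The sources disagree on which RNA each dye carried. According to the labels, Cy5 held MgSO4-treated HI brain and Cy3 held MgSO4-treated naive brain, that is, brain with no injury. According to the methods, Cy3 held HI brain without MgSO4, and the figures of the study place the MgSO4-treated HI brain in Cy3. All ratios are therefore given as log2 of Cy5 over Cy3, positive when the Cy5 signal is the higher, with no statement on which treatment was higher. No array was dye-swapped, so that any dye effect is part of each ratio. For comparison, 3 further groups of arrays were used: the HI arrays at 3 h (3 arrays, HI brain in Cy5, with PBS in the titles but MgSO4 in the Cy5 treatment label, and naive brain in Cy3), the MgSO4 arrays at 3 h (4 arrays, brain of MgSO4-treated pups without HI in Cy5 and naive brain in Cy3), and the MgSO4-HI arrays at 12 h (3 arrays, labelled as those at 3 h). Both sets of naive pups carry PBS as their treatment in the labels, whereas the methods describe controls with no intervention. According to the study's supplement, the naive pups of the HI and of the MgSO4 arrays came from separate litters.

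Hypoxia-ischemia deprives one hemisphere of oxygen and glucose, and the glutamate release, calcium entry and inflammation that follow switch on genes within hours. Immediate early genes, such as Fos, Egr1 and Junb, encode transcription factors and their regulators that are transcribed within minutes of a stimulus without new protein synthesis, many of them through CREB bound at cAMP response elements (CRE). Chemokines and cytokines, released mainly by microglia and endothelium, then attract and activate immune cells. Magnesium blocks the NMDA-type glutamate receptor and competes with calcium, and MgSO4 is given before preterm birth to protect the newborn brain.

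The arrays carried 39429 non-control probes, of which 27421 (69.5%) had 1 gene symbol. Between 63.1% and 66.3% of the spots in Cy5 and between 63.2% and 64.9% in Cy3 were well above background, and none was saturated. After leaving out dim probes, 14742 genes were tested, each by its brightest probe. A gene is called here when its mean ratio differed from 0 at an adjusted p under 0.05 (limma, Benjamini-Hochberg adjustment over all probes) and by at least 1.5-fold. The call was met by 795 genes (5.39% of those tested), of which 579 (3.93%) were higher in Cy5 and 216 (1.47%) higher in Cy3. Most ratios were small: the median fold of the called genes was 1.69 toward Cy5 and 1.71 toward Cy3, and 149 of them reached 2-fold. Across probes, the ratios correlated at 0.68 between replicates 1 and 2, 0.62 between replicates 2 and 3, and 0.40 between replicates 1 and 3. Called genes were more frequent among the dimmest genes (8.63%) than among those of middle (4.58%) and high signal (2.97%). Without replicate 1 the count of called genes was 1379 and without replicate 2 it was 517. It was 439 without background subtraction and 349 with another background correction (normexp). The p-values measure the spread between these 3 pairs of pools.

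Before the ratios, each channel was examined for the response to injury, since the sources disagree on its content. Among the immediate early genes, Fos, which encodes a subunit of the AP-1 transcription factor, and Junb, which encodes one of its partners, are shown with the 250 bases upstream of their annotated start, because Fos was high in both channels with a ratio near 0 whereas Junb was among the called genes. The sequences are those of RefSeq (GRCm38.p6), read 5′ to 3′ along the gene, with TGACG, the core of the CRE, in capitals, after a search of both strands. They lie at chr12:85473640-85473889 on the + strand for Fos and at chr8:84978749-84978998 on the - strand for Junb. In the same windows, TGACG was found for 19 of the 30 immediate early genes that had a sequence (63.3%) and for 19.8% of all 27025 genes, and the full CRE, TGACGTCA, which contains it, for 3 of the 30 (10%) and 1.77% of all genes.
Fos: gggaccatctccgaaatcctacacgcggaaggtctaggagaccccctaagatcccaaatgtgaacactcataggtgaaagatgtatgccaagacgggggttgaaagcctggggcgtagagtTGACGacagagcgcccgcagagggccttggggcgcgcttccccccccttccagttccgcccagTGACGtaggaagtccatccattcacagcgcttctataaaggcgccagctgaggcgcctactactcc
Junb: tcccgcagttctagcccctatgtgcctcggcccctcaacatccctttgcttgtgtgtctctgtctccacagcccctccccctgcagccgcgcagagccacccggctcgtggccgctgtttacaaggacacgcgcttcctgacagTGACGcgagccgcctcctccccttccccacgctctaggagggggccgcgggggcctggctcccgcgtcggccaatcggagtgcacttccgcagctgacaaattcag

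In both channels of Experiment 2, the median levels of immediate early genes and of chemokine and cytokine genes lay above naive brain. On a scale of log2 signal minus the 75th percentile of the array, the level of Fos in Cy3 was 2.67, 2.67 and 2.29 on replicates 1 to 3 and that in Cy5 was 2.60, 3.36 and 2.25. In the 7 naive channels of the other 3 h arrays the mean level of Fos was -3.10 ± 0.31 (SD), in HI brain 2.70 ± 0.52 (n = 3) and in MgSO4-treated brain without HI -3.45 ± 0.26 (n = 4). Thus, Fos in the Cy3 channel, labelled as naive, stood at the level of HI brain and far above every naive and every MgSO4-treated channel. Ccl4, a chemokine that attracts monocytes, behaved in the same way, with mean levels of -0.06 in Cy3, -0.40 in Cy5 and -0.20 in HI brain against -4.52 in naive brain. Of the 35 immediate early genes measured, 24 were higher on all 3 Cy3 channels than on all 7 naive channels, 26 on all 3 Cy5 channels, 25 in HI brain and 0 in MgSO4-treated brain without HI. Their median level over naive brain was 1.51 in Cy3, 1.76 in Cy5 and 1.31 in HI brain, and it was -0.03 in MgSO4-treated brain. For the 31 chemokine and cytokine genes the medians were 0.81, 0.74 and 0.77, with -0.08 in MgSO4-treated brain. Other injury genes stood out less. For 33 heat shock and chaperone genes the medians were -0.02, 0.08 and 0.08, with 4, 6 and 5 genes above all naive channels. For 34 hypoxia response genes the medians were 0.18, 0.32 and 0.31, with 10, 12 and 13 such genes. The share of all genes above all naive channels is not given, so that these counts carry no comparison with other genes. Against the naive pools hybridised on the same slides, the Cy3 channel was higher in 31 of the 35 immediate early genes. This count, too, has no share of all genes beside it. By the levels of Fos and Ccl4 and the medians of these 2 lists, the Cy3 RNA did not have the profile of the uninjured brain that its label gives. The 2 lists meant are the immediate early genes and the chemokine and cytokine genes. These levels compare single channels across arrays and were not tested.

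**Figure D1:**
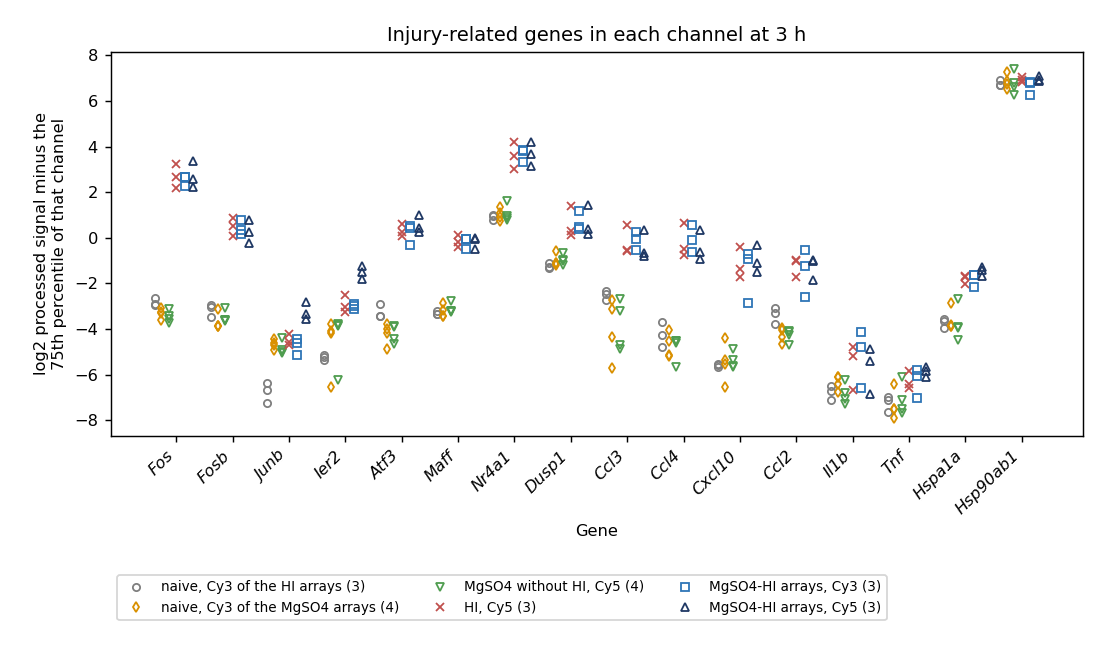
Levels of injury genes in single channels (log2 processed signal minus the 75th percentile of the array) for the Cy3 and Cy5 channels of the 3 arrays of Experiment 2, beside HI brain, MgSO4-treated brain and the naive channels of the other 3 h arrays; each point is 1 channel. Fos and Ccl4 lie at the level of HI brain in both channels of Experiment 2 and several log2 units lower in naive and MgSO4-treated brain.

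The largest ratio toward Cy3 was that of Peg10, an imprinted gene derived from a retrotransposon and essential for the placenta. Its ratios were -2.75, -2.87 and -2.68 (mean -2.77 ± 0.10, SD, n = 3; limma adjusted p = 0.00434), with signals of 112, 159 and 102 in Cy3 and 16.6, 21.7 and 15.9 in Cy5. The replicates were close to each other and Cy3 was the higher on each. A second probe of Peg10 lay near background in both channels and was not tested. On the HI arrays the Peg10 ratios were 0.64, -0.29 and 0.33, and on the MgSO4-HI arrays at 12 h they were -2.44, -2.71 and 0.49. Hence, at 12 h replicates 1 and 2 resembled the arrays at 3 h and replicate 3 did not. Ehbp1, which encodes an adaptor between endosomes and actin, had ratios of -2.35, -2.53 and -1.91 (mean -2.26 ± 0.32; adjusted p = 0.00771), and at 12 h -2.14, -2.54 and 0.08, with the same exception.

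The third gene selected for these arrays, Mppe1, a phosphoesterase of GPI-anchor remodelling, was higher in Cy5, with ratios of 2.26, 2.46 and 1.82 (adjusted p = 0.00771). Its Cy3 signals of 5.42, 3.53 and 8.93 were not well above background on any array. Its fold of 4.53 toward Cy5 is therefore an estimate over background and not a lower limit. For folds over a channel at background, the signal in that channel was raised on each array where needed. It was set to the dimmest signal that counts as well above background if it lay below that. For Mppe1 this left the fold of the mean ratio unchanged. The 12 h ratios of Mppe1 were 1.91, 3.56 and 0.47.

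Among the 15 genes with the largest ratios toward Cy5, several were likewise read against a Cy3 signal at background. They included Cela2a, a pancreatic elastase (4.94-fold), and Gm20877, a predicted gene of the Y chromosome (4.32-fold). Gpr35, a G protein-coupled receptor (4.31-fold), and Pola2, a subunit of DNA polymerase alpha (3.81-fold), were others. Adjusted p was, in this order, 0.0125, 0.00816, 0.00991 and 0.011 (limma). Their mean ratios were 2.36, 2.13, 2.11 and 1.93 in Experiment 2. In the same order they were 2.49, 2.71, 2.02 and 0.74 on the HI arrays and 0.84, 0.84, 1.49 and 0.05 on the MgSO4 arrays. In all, 46 called genes had a Cy3 signal at background on every array and 19 a Cy5 signal at background, against 647 that were above background in both channels throughout. The 12 highest and 12 lowest of the latter kind were added after the values were seen.

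Above background in both channels, Tubb2a-ps2, a pseudogene related to the neuronal beta-tubulin Tubb2a, had the largest ratio toward Cy5 (1.59, 1.45 and 1.69; mean 1.58 ± 0.12; adjusted p = 0.00771). Its probe may also read Tubb2a transcripts, as pseudogene and parent share sequence. It was followed by Rprd1b, a regulator of RNA polymerase II (2.04, 1.57 and 1.04), whose other probe had a mean of -0.55 ± 0.18. Ahcy, the hydrolase of S-adenosylhomocysteine in the methylation cycle, had 1.54, 1.33 and 1.63, and a second probe of the gene was also called (mean 1.25 ± 0.45). Fgd1, a nucleotide exchange factor for Cdc42, had ratios of 1.18, 1.40 and 1.91. Acvr1b, a receptor for activin, had 0.97, 1.60 and 1.68, and Egln1, the prolyl hydroxylase that marks HIF-1 alpha for destruction, 1.23, 1.53 and 1.46. In Tubb2a-ps2, Ahcy, Fgd1, Acvr1b and Egln1, Cy5 was higher on every array and the spread was well below the mean.

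Toward Cy3, the genes above background were led, after Peg10 and Ehbp1, by Kitl, the ligand of the receptor Kit, with ratios of -1.62, -1.89 and -1.73 (mean -1.75 ± 0.13; adjusted p = 0.00771). Tox4, a chromatin protein of a phosphatase complex, had ratios of -1.43, -1.71 and -1.57 by its brightest probe, while its other probe had a mean of 0.58 ± 0.05 and was not called. The same occurred with Rims1, a scaffold of the presynaptic release site, with -1.72, -1.43 and -0.73 by the brightest probe and 0.16 ± 0.12 by the other. For both genes the probes were on opposite sides of 0. AI504432, an unnamed transcript, had -1.43 by its brightest probe and -1.44 by its other probe, both called.

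**Figure D2:**
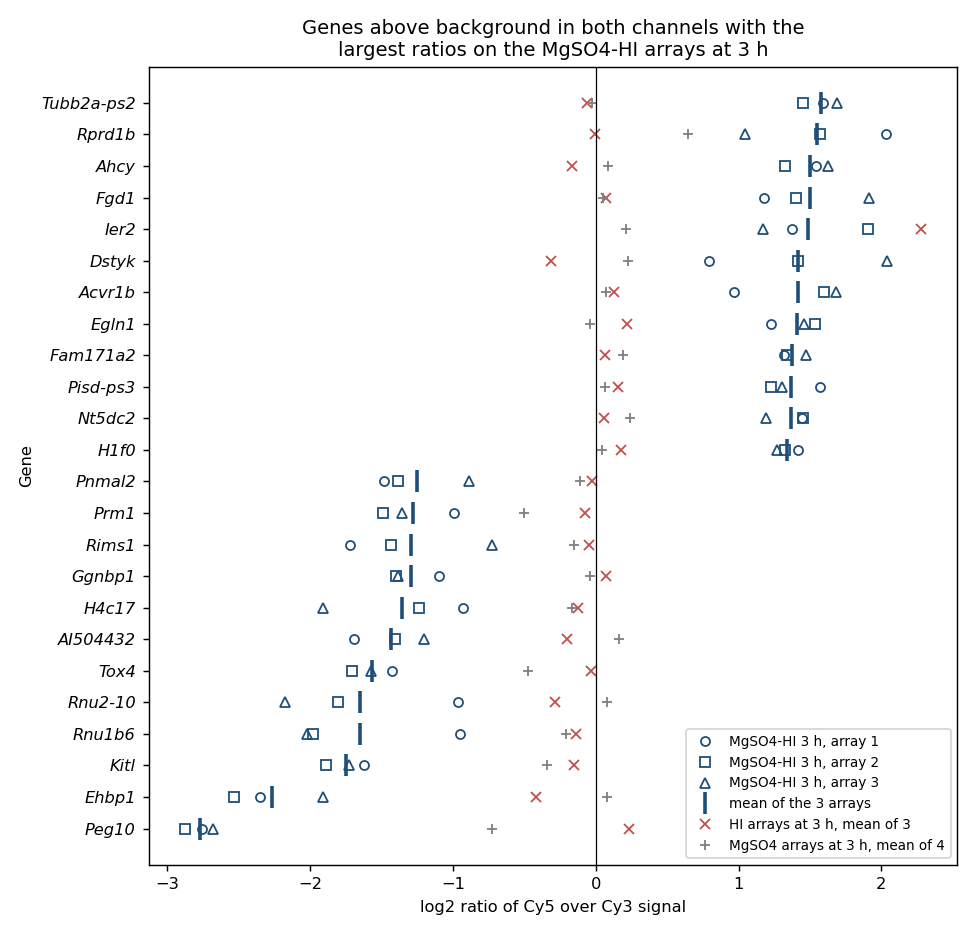
Log2 ratio of Cy5 over Cy3 on each of the 3 arrays for the genes with the highest and lowest mean ratios above background in both channels; each open point is 1 array and the bar marks the mean, with the means of the HI (x) and MgSO4 (+) arrays at 3 h beside them. The 3 points of Peg10, Kitl and Tubb2a-ps2 lie close together, whereas those of Rims1 are spread from -1.72 to -0.73.

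These large ratios had a counterpart in the naive brain of the other arrays. The naive Cy3 channels of the MgSO4 arrays (4) and of the HI arrays (3) both held brain labelled naive, with PBS as treatment, yet the level of Peg10 was -6.55 ± 0.48 in the former and -3.03 ± 0.46 in the latter. In Experiment 2 its level was -5.28 in Cy5 and -2.52 in Cy3. Hence, for Peg10 the Cy3 channel was near the naive and HI channels of the HI arrays (-3.03 and -2.78), and the Cy5 channel was displaced toward those of the MgSO4 arrays. Tubb2a-ps2 had the converse order, with 5.02 in Cy5 and 3.44 in Cy3, against 4.98 ± 0.47 in the naive pools of the MgSO4 arrays and 3.80 ± 0.24 in those of the HI arrays. The difference between the 2 sets of naive pools was -2.57 for Ehbp1, -2.38 for Kitl, -2.92 for Tox4, 2.31 for Acvr1b and 1.77 for Egln1, each with the sign of its ratio in Experiment 2.

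Over the 13960 genes with both levels, this naive difference had the sign of the Experiment 2 ratio in 60.4% of all genes and in 81.8% of the called genes (561 of 686), with 84.1% of those higher in Cy5 and 74.9% of those higher in Cy3. It exceeded 1.5-fold in the same direction in 51% of the called genes and in 18.7% of all genes. Of the 24 genes highest or lowest above background, 23 had a naive difference past 1.5-fold with the same sign, the exception being Nt5dc2. Of the 30 called genes with the highest or lowest ratios irrespective of background, 27 had the same sign and 24 were past 1.5-fold. Across genes, which are not independent replicates, the naive difference and the ratio correlated at 0.30 over all genes, 0.32 over the called genes higher in Cy5 and 0.30 over those higher in Cy3. Over both kinds of called genes together the value was 0.63, which joins groups selected on opposite sides of 0. In addition, the level of HI brain on the HI arrays lay nearer to the Cy3 channel than to the Cy5 channel of Experiment 2 in 76% of the called genes higher in Cy5 (439 of 578) and in 66.2% of those higher in Cy3 (143 of 216). The called genes were selected for the gap between these channels, and the HI arrays share slides with Experiment 2. No such share over all genes is given. The 2 sets of naive pools differ by litter, slide and scan, which cannot be told apart, and whether all received PBS is not settled by the sources. The part of this difference in the ratios of Experiment 2, whose channels share a slide, was not tested.

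**Figure D3:**
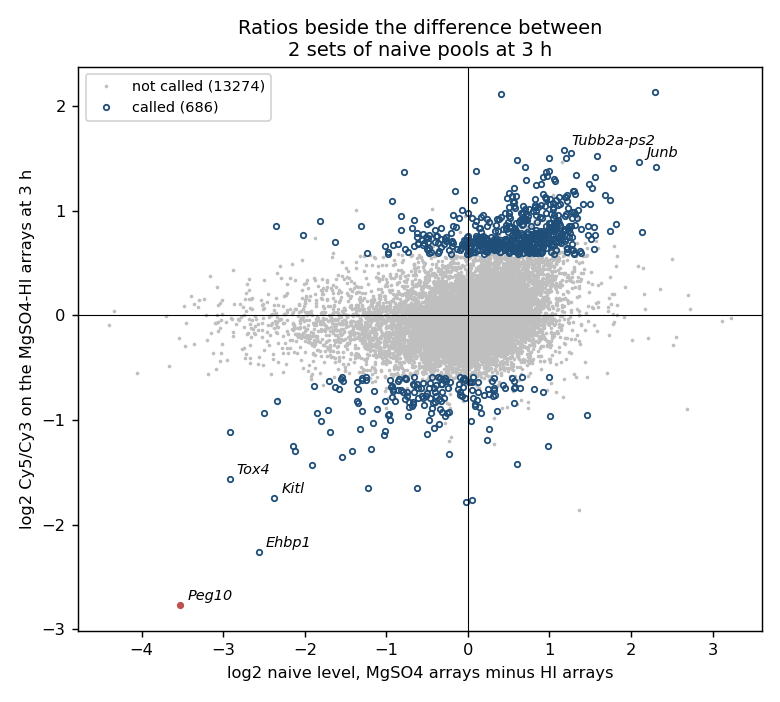
Mean log2 ratio of Cy5 over Cy3 in Experiment 2 (vertical axis) against the naive level on the MgSO4 arrays minus that on the HI arrays (horizontal axis, log2) for 13960 genes, with called genes coloured. Called genes lie mostly in the quadrants where both values have the same sign (81.8%); Peg10, drawn in red, was not above background on the MgSO4 arrays and is added to those genes.

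Although immediate early genes were high in both channels, 5 of the 35 measured differed between them, all higher in Cy5 (14.3%, against 5.39% of all genes). They were Ier2 (ratios of 1.38, 1.91 and 1.17), Junb (1.08, 1.76 and 1.54) and Ier5 (1.73, 1.34 and 0.89). Their limma adjusted p was 0.00936, 0.00908 and 0.0131. The others were Dusp5, a phosphatase of ERK kinases (2.15-fold over a Cy3 signal at background), and Nr4a3. The latter is a nuclear receptor whose Cy3 signal was above background on 1 array (mean 1.06). The Cy3 signal of Junb was above background on 2 of the 3 arrays. Another probe of Ier5 had a mean of 0.57 ± 0.36 and was not called. Such dim signals limit this share, as 8.63% of the dimmest genes were called. Ier2 and Ier5 encode nuclear regulators induced by growth factors and stress. Other members were not called: Fos had ratios of -0.08, 0.69 and -0.06, and Egr1, a zinc finger factor of neuronal activity, -0.50, 0.48 and 0.10. The lowest of the list was Nr4a2 with a mean of -0.55. The median of the list was 0.01, against -0.04 over all genes, and by array it was -0.14, 0.35 and -0.11, so that replicate 2 stood above the others. The naive difference described above was 2.09 for Junb, 1.56 for Ier5 and 0.60 for Ier2, again with the sign of the ratio.

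No chemokine or cytokine gene of the 31 measured was called. At an unadjusted p under 0.05, with no fold threshold, 3 of the 31 passed in limma, against 26.4% of all genes. The largest mean was that of Cxcl10, a chemokine for T cells, with ratios of 0.39, 1.37 and -0.22, and the smallest that of Il1b, the cytokine interleukin-1 beta, with -0.10, -0.27 and -1.27. Ccl4 had 0.43, -0.29 and -1.17. In all 3 genes the arrays disagreed by more than the mean, and replicate 3 was the lowest.

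The interferon-induced genes, the antiviral program of the innate response, included 5 called genes of 28 (17.9%, against 5.39% of all genes), of which 4 were higher in Cy3. These were Rtp4, a chaperone of receptors (-0.52, -0.71 and -0.96), Ifitm3, a membrane barrier to viral entry (-0.50, -0.63 and -0.67), and the oligoadenylate synthetase genes Oas1a and Oasl1 (means of -0.62 and -0.60). Another probe of Oas1a, at background in Cy3, had ratios of 2.61, 0.53 and 0.79 and was not called, and the Cy5 signal of Oasl1 was above background on 1 array. Tap1, the peptide transporter of antigen presentation, was higher in Cy5 (mean 1.15 ± 0.16). The median of the list was -0.15, beside -0.13 on the HI arrays and -0.12 on the MgSO4 arrays. On the HI arrays Rtp4 and Oas1a had means of -0.84 and -0.69, as low as in Experiment 2. Oasl1, Ifitm3 and Tap1 had -0.17, 0.14 and 0.11 there. None of these 5 genes was called without background subtraction or with normexp.

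Of 15 genes of blood cells, 4 were called (26.7%, against 5.39% of all genes). The neutrophil genes S100a9 (-0.44, -1.11 and -1.47) and Camp (mean -0.60) were higher in Cy3. So was Mpo, whose Cy5 signal was at background on every array and whose fold of 1.5 is at the threshold. Hemgn, of red cell precursors, was higher in Cy5 (0.56, 0.74 and 0.81). In bulk tissue, fewer cells of a type and less RNA per cell cannot be told apart. The ratio of Hemgn was 0.71 on the HI arrays and 0.67 on the MgSO4 arrays. Camp and Mpo were no longer called without background subtraction or with normexp.

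Lists of neuronal genes held called genes at shares that are to be read beside the 5.39% of all genes. Of 41 voltage-gated channel genes, 5 were called, all higher in Cy5 (12.2%), among them Cacng4, Cacnb2 and Cacnb1, auxiliary subunits of calcium channels, and Scn8a, a sodium channel, with means of 1.22, 0.92, 0.62 and 0.63. Another tested probe had a mean of -0.43 for Cacnb2 and of -0.35 for Scn8a, neither called. The median of the list was -0.05, and 18 of 41 members were positive. Of 41 neuronal cytoskeleton genes, 4 were called (9.76%), all higher in Cy5: the tubulins Tubb2b (0.79, 0.43 and 1.35) and Tubb4a (0.70, 0.80 and 0.86), the neurofilament Nefm (mean 0.75) and Dpysl5, of growing axons (mean 0.69). Reelin and axon guidance contributed 4 of 54 (7.41%), all higher in Cy5. They were the adhesion molecule L1cam (mean 1.13 ± 0.15), the receptors Epha5 and Ephb3 (0.72 and 0.69) and Sema6d (0.61). Epha5, Ephb3 and Sema6d had means of 0.77, 0.75 and 0.76 on the HI arrays and of 0.71, 0.69 and 0.75 on the MgSO4 arrays. Scn8a had 0.69 and 0.66 there, and Dpysl5 0.76 and 0.50. By contrast, L1cam, Cacng4, Cacnb2, Tubb2b, Tubb4a and Nefm had means of at most 0.33 on either group.

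Synaptic genes were called in both directions. Of 36 genes of synaptic vesicles and release, Sv2a (mean 0.86) and Stx1a (0.72), a vesicle glycoprotein and a fusion protein, were higher in Cy5 and Rims1 was higher in Cy3. Of 25 glutamate receptor genes 1 was called, Grin2a, an NMDA receptor subunit and thus part of the channel that magnesium blocks. Its ratios were -1.61, -1.07 and -0.54, negative on every array, and the call was lost with normexp. In the GABA system, 3 of 23 were called (13%): Slc6a11, a GABA transporter (mean 0.68), was higher in Cy5, and the receptor subunits Gabbr2 (-0.95) and Gabrg3 (-0.77) were higher in Cy3. The other probes of Gabbr2 lay on the opposite side, at 0.53 and 0.43, and were not called.

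In several lists the arrays were displaced from each other. The median of the neuronal cytoskeleton list was -0.20 on replicate 1, 0.12 on replicate 2 and 0.43 on replicate 3, that of cortex and hippocampus genes -0.34, -0.01 and 0.33, and that of reelin and axon guidance -0.30, 0.03 and 0.24. Over all genes the medians were -0.04, -0.04 and 0.01. Not every list of neurons followed this order: that of the striatum had -0.17, -0.25 and -0.15. Complex IV of the respiratory chain had the opposite order, with -0.12, -0.20 and -0.49. Replicates 1 and 3 thus differed in whole groups of genes as well as in their correlation across probes, and a cause was not tested.

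**Figure D4:**
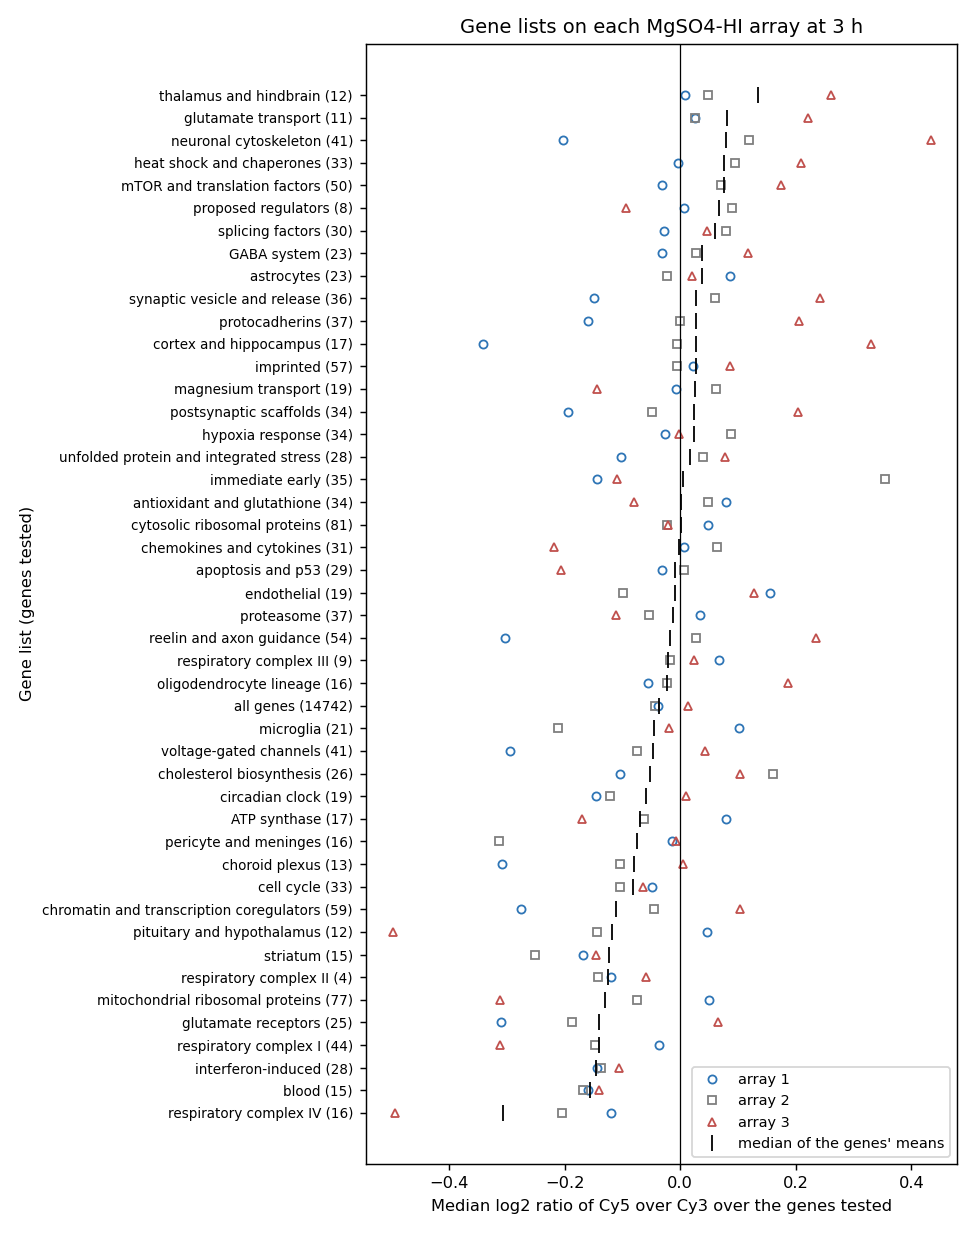
Median log2 ratio of Cy5 over Cy3 of gene lists on each of the 3 arrays (1 point per array and list), with all genes for reference and the median of the genes' means as a bar; the sex list and the 3 genes selected for these arrays are left out. The lists of neuronal cytoskeleton, cortex and hippocampus, and reelin and axon guidance run from below 0 on replicate 1 to above 0 on replicate 3, and respiratory complex IV is below 0 on all 3 arrays.

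Imprinted genes, expressed from 1 parental allele and often involved in growth, held 7 called genes of 57 (12.3%, against 5.39% of all genes). Apart from Peg10, they were higher in Cy5: Snrpn (0.83, 1.20 and 1.20), Ndn (0.88, 0.89 and 0.80) and Ube3a (mean 0.68), which are neighbours in the region deleted in Prader-Willi and Angelman syndromes, with Pon2, Blcap and Slc22a3 (means of 0.85, 0.75 and 0.61). Of the other probes of Snrpn, 1 was called (mean 1.37 ± 0.08) and 1 was not (0.17 ± 0.05). The naive difference was 1.04 for Snrpn but 0.09 for Ndn. Hence, the ratio of Ndn had no counterpart of its size in the naive pools. The median of the list was 0.03.

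In genes of energy metabolism, few were called. In respiratory complex I, 2 of 44 were called (4.55%), both higher in Cy5, among them Ndufa10 (0.63, 0.68 and 0.77), whereas the median of the list was -0.14. In complex IV, 0 of 16 were called and 14 of 16 had a negative mean, with a median of -0.31. Of 77 mitochondrial ribosomal proteins, Mrpl37 was higher in Cy5 (mean 0.76) and Mrpl52 in Cy3 (mean -0.59), and the median was -0.13. On the HI arrays the medians of complex I, complex IV and mitochondrial ribosomal proteins were -0.14, -0.16 and -0.13. On the MgSO4 arrays they were -0.02, -0.07 and -0.03. Negative medians in these lists were thus not particular to Experiment 2. Of 81 cytosolic ribosomal proteins, 2 were called in each direction, and the median was 0.00. Probes of ribosomal proteins may also read processed pseudogenes.

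Of 4 small nuclear RNAs, which serve in the spliceosome and in ribosome maturation, 3 were called (against 5.39% of all genes), all higher in Cy3. These RNAs were examined as a class after their values were seen. Rnu1b6 had ratios of -0.95, -1.98 and -2.02 and Rnu2-10 of -0.97, -1.80 and -2.18, with Rnu3b1 at a mean of -0.96 ± 0.57. In each, replicate 1 had the smallest ratio. The fourth, Rnu12, had 0.15, -0.35 and -0.81 and was not called. The MgSO4-HI arrays at 12 h had similar means (-1.80 for Rnu1b6 and -1.74 for Rnu2-10), and the HI arrays had means of -0.14 and -0.28. These RNAs belong to families of near-identical copies, which a probe may not separate.

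In the hypoxia response, Egln1 was the single gene called of 34. No gene was called among microglia (21), oligodendrocyte lineage (16), endothelial (19), pericyte and meninges (16) and choroid plexus genes (13), nor among genes of magnesium transport (19), heat shock and chaperones (33), apoptosis and p53 (29), the cell cycle (33), the circadian clock (19), the proteasome (37), splicing factors (30), respiratory complexes II (4) and III (9) and ATP synthase (17). In these lists the largest means were those of Abcc9, a potassium channel subunit of pericytes (-1.40, -0.87 and -0.08), Trp53, which encodes the tumour suppressor p53 (-1.29, -0.98 and -0.24), and Slc4a5, a bicarbonate transporter of the choroid plexus (-1.19, -0.55 and -0.18), in which replicate 3 was the nearest to 0. Zdhhc17, a palmitoyl transferase with magnesium transport activity, had 0.36, 0.66 and 0.69, and missed the 1.5-fold threshold at an adjusted p of 0.0324 (limma). Xist, the RNA that coats the inactive X chromosome, had ratios of 1.14, 0.89 and -0.09 and was not called. Of 23 astrocyte genes, Serpina3n, of reactive astrocytes, was higher in Cy5 (mean 0.74) and Slc4a4, a bicarbonate transporter, was higher in Cy3 (mean -0.82). Across the 47 lists, 21 had a median above 0.

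Most of the remaining lists held 1 to 3 called genes each. Higher in Cy5 were Eef1a2, the translation elongation factor of mature neurons (0.75, 0.90 and 1.02), and Akt1s1, an inhibitor of mTORC1 (mean 0.62), of 50 genes of mTOR and translation factors. Of 28 genes of the unfolded protein and integrated stress responses, Hyou1, a chaperone of the endoplasmic reticulum, was called (0.98, 1.38 and 1.03), and of 26 of cholesterol biosynthesis, Srebf2, its master transcription factor (mean 0.67). Gss, of glutathione synthesis (mean 0.59), was called of 34 antioxidant genes. Of 59 chromatin and transcription coregulators, Med13l, of the Mediator complex, was called (2.33-fold over a Cy3 signal at background, limma adjusted p = 0.0195). All of these were higher in Cy5.

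In lists of brain regions, Drd2, the dopamine receptor of the striatum (mean 0.68, of 15 genes), was higher in Cy5. So were Mef2c, a transcription factor of cortical neurons (mean 0.63, of 17), and Gh, growth hormone, of 12 pituitary and hypothalamus genes. The fold of Gh was 2.78 over a Cy3 signal at background (limma adjusted p = 0.00771). Of 12 genes of thalamus and hindbrain, Calb2 (1.03, 0.72 and 0.98) was higher in Cy5 and Tcf7l2 (-0.49, -0.72 and -0.82, with a mean of 0.19 by another probe) in Cy3. At the postsynaptic site, the scaffold Dlg1 (mean 0.59) was higher in Cy5 and the adhesion molecule Nrxn3 (mean -0.67, with its other probes between -0.37 and 0.34) in Cy3, of 34 genes. Of 37 protocadherins, Pcdha11 and Pcdha8 (means of 0.74 and 0.68) were higher in Cy5 and Pcdhb21 (mean -0.64) in Cy3, and these genes share sequence within their clusters. Slc1a4, a transporter of neutral amino acids (mean 0.72), was called of 11 genes of glutamate transport. Among the 8 upstream regulators proposed by the study that were measured, 0 were called. Crem, a partner of CREB, had ratios of 0.62, 0.43 and -0.22, with replicate 3 on the other side of 0.

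In most called genes with another tested probe, no other probe was called the same way. Of the called genes, 151 had at least 1 other tested probe, and in 34 of them (22.5%) another probe was called the same way. For the 102 genes higher in Cy5, the median ratio was 0.74 by the brightest probe and 0.28 over the 117 other probes, of which 30 were called. For the 49 genes higher in Cy3, the medians were -0.78 and -0.10, and 5 of the 63 other probes were called. Another probe was called in the opposite direction in 3 genes, H2-Q10, Mmab and Zfp26. Conversely, 609 genes were called by a probe that was not their brightest, and 546 of them were higher in Cy5. These counts are to be read beside those of all probes. Of all 19282 tested probes 1468 were called, against 795 of the 14742 brightest, so that dimmer probes were called more often in general. The brightest probe was chosen by signal and not by ratio, but a called gene was selected for the ratio of that probe, and other probes are then on average nearer to 0.

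**Figure D5:**
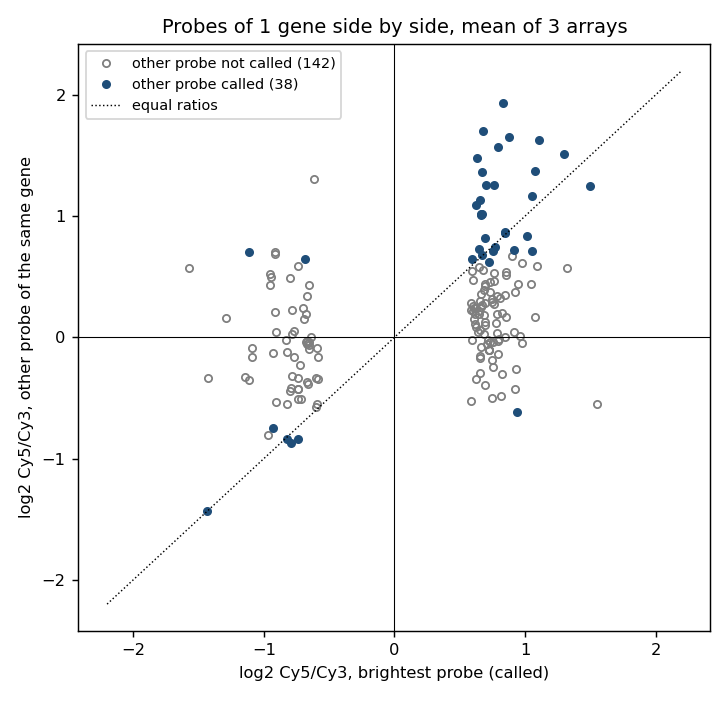
Mean log2 ratio of Cy5 over Cy3 by another tested probe (vertical axis) against that of the brightest probe (horizontal axis) for the 151 called genes with more than 1 tested probe, with the line of equality. Most points lie nearer to 0 than the line, and those of Tox4 and Rprd1b, at 0.58 and -0.55 on the vertical axis, lie on the other side of 0.

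Compared with the HI arrays at 3 h, where HI brain was set against naive brain, the ratios of Experiment 2 differed for 902 of 14435 genes (6.25%), with 486 higher (3.37%) and 416 lower (2.88%). Leaving out 1 array gave between 323 genes, without replicate 1 of the HI arrays, and 952 genes, and 364 without replicate 2 of Experiment 2, 377 without replicate 2 and 587 without replicate 3 of the HI arrays. The largest differences were those of injury genes. Fos had ratios of 5.57, 5.86 and 5.12 on the HI arrays, and the difference was -5.34 ± 0.26 (SE; limma adjusted p = 0.0017). It was -4.38 ± 0.51 for Ccl4, -3.87 ± 0.47 for Cxcl10, -3.79 ± 0.31 for Fosb, -3.22 ± 0.23 for Atf3, a stress factor, and -2.80 ± 0.32 for Egr1. Over the lists, 23 of 35 immediate early genes and 16 of 31 chemokine and cytokine genes differed, and their medians on the HI arrays were 1.48 and 0.79. These genes were high on the HI arrays and near 0 in Experiment 2. Junb and Ier2, called in Experiment 2, had means of 2.26 and 2.27 on the HI arrays, where ratios were not tested against 0. The differences of -0.80 ± 0.24 and -0.79 ± 0.22 were not called (limma adjusted p = 0.0764 and 0.0587). Ier5 had 0.46, 0.16 and 0.56 on the HI arrays, lower than in Experiment 2 (difference 0.93 ± 0.22; adjusted p = 0.0379). Of the genes called in Experiment 2 and tested in both, 276 of 526 higher in Cy5 (52.5%) and 85 of 204 higher in Cy3 (41.7%) differed, each with the larger ratio in Experiment 2. Since the called genes were selected for their ratio in Experiment 2, this direction is a description.

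Compared with the MgSO4 arrays at 3 h, which have no injury, 459 of 14082 genes differed (3.26%), 377 higher (2.68%) and 82 lower (0.582%) in Experiment 2. Ehbp1 had ratios of -0.41, -0.14, 0.35 and 0.52 there (difference -2.34 ± 0.25; adjusted p = 0.00483, limma), Mppe1 of 0.35, -0.51, 0.10 and 0.36 (difference 2.11 ± 0.24; adjusted p = 0.00483) and Tubb2a-ps2 of -0.26, -0.38, -0.06 and 0.59 (difference 1.60 ± 0.22; adjusted p = 0.00785). The groups did not overlap in these genes, but they were selected for large ratios in Experiment 2, so that this is a description. Junb and Ier2, near 0 on the MgSO4 arrays, differed by 1.62 ± 0.18 and 1.27 ± 0.18 (adjusted p = 0.00483 and 0.00817). Jaml, an adhesion molecule of leukocytes, had -0.67, -0.99 and -0.45 in Experiment 2 and 0.71, 0.73, 1.96 and 1.44 on the MgSO4 arrays. Fos, at -0.33, -0.15, 0.18 and -0.30, was not called as different. Without replicate 2 of Experiment 2, the count of differing genes was 90, without replicate 3 it was 271, and without replicates 2 and 4 of the MgSO4 arrays it was 208 and 277.

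A further set of genes passed 1.5-fold in the same direction in every group of arrays. Of 686 called genes tested in all 3 h groups, 60 exceeded 1.5-fold in the same direction on the HI and the MgSO4 arrays. The same share over all genes is not given. The difference was called from neither group, which the selection of genes past the threshold in every group makes likely beforehand. All 60 were higher in Cy5, and all 60 also exceeded 1.5-fold at 12 h. Epha5, a receptor of axon guidance whose other probe was near 0 in Experiment 2 (-0.02), had ratios of 0.61, 0.78 and 0.76 in Experiment 2, 0.71, 0.81 and 0.79 on the HI arrays and 0.53, 0.98, 0.67 and 0.67 on the MgSO4 arrays. Hemgn had nearly the same values, as given above, and Slc1a4, Ephb3 and Scn8a belonged to the set, as did Gpr35 and Gm20877, the latter with unequal means of 2.13 in Experiment 2, 2.71 on the HI arrays and 0.84 on the MgSO4 arrays. In these genes Cy5 was higher whether the pair of samples was HI against naive, MgSO4 against naive or that of Experiment 2. The dye is common to the 3 pairs of samples, and its part was not tested, as no array was dye-swapped. By contrast, the difference was called from both groups in 247 genes, 214 higher and 33 lower in Experiment 2.

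The ratios at 12 h did not separate from those at 3 h. No gene of 14522 was called by limma (0%), while 173 had an unadjusted p under 0.05 with a difference of at least 1.5-fold. Of the genes called at 3 h, 562 higher in Cy5 had a median of 0.75 at 3 h and 0.69 at 12 h, and 199 higher in Cy3 had -0.77 and -0.60. The spread at 12 h was wide in the genes with large ratios: for Tubb2a-ps2 the 12 h ratios were 1.66, 1.32 and 0.37, for Kitl -1.58, -2.34 and -0.75, and for Egln1 2.16, 1.97 and 0.62, with replicate 3 nearest to 0 in each.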

How the data were processed

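RNA was labelled with Cy3 and Cy5, hybridised in pairs and scanned, and the authors deposited Agilent Feature Extraction (10.5.1.1) output, with background-subtracted, loess-normalised signal intensity in each channel and the log10 ratio of Cy5 over Cy3 per spot. The deposited series table holds the same log10 ratio. From the deposited intensity, log2 of Cy5 over Cy3 was computed here. Control spots, spots marked as outliers, RIKEN clones and probes without 1 gene symbol were left out, repeated spots were averaged, and a probe was kept if 2 of the 3 arrays (66.7%) had it well above background in Cy3 or Cy5. Ratios were tested against 0, and between groups of arrays, with limma 3.58.1 in R 4.3.3 (adjusted p under 0.05 and 1.5-fold, log2 of 0.585). The brightest tested probe stood for a gene. The procedure was tested on simulated data. The number of arrays limits the precision.

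Single-channel levels are log2 intensity minus the 75th percentile of the channel. Named genes were the 15 highest and the 15 lowest called genes with 1 sign on all arrays, Peg10, Ehbp1 and Mppe1, up to 4 called members of each gene list per direction (up to 2 members where none was called), the regulators proposed by the study, up to 8 genes per difference between groups, and injury genes in each channel. The members and the lists were chosen with earlier results of these data known. Of 1429 list entries, 1409 were on the array.

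The HI arrays and those of Experiment 2 share replicate numbers and, by number, slides: same-numbered arrays correlated in their deviations from the group means at 0.30, 0.23 and 0.30. The replicates of the 12 h arrays did not pair (-0.43, 0.03 and -0.02). Of the MgSO4 arrays, replicate 1 correlated at 0.47 with its number, whereas replicates 2 and 3 (-0.02 and 0.20) matched another number best. Alternatives were other background corrections (among them normexp with an offset of 50), filters, tests, centring, probe rules, fold thresholds, blocks and leaving out each array. The naive levels beside the ratio were added after seeing the data. No column was left unmapped.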

Additional observations from a re-analysis of the deposited data

How the results depend on the processing

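Of the 795 genes called in Experiment 2, the count was 439 without background subtraction, 349 with normexp, 381 without the filter on dim probes, 1404 when any probe of a gene could be called, 1398 with the probe of the largest ratio, 149 at 2-fold, 1302 without a fold threshold, and 0 by the methods' t-test after Benjamini-Hochberg adjustment (639 unadjusted). Leaving out 1 array gave 517 (without replicate 2) to 1379 (without replicate 1). Without background subtraction the count was 518 instead of 902 for the difference from the HI arrays and 288 instead of 459 for that from the MgSO4 arrays. Leaving out 1 array gave 323 to 952 for the former, with 364 without replicate 2 of Experiment 2, and 323, 377 and 587 without replicates 1, 2 and 3 of the HI arrays. For the latter it gave 90 to 567, with 90 and 271 without replicates 2 and 3 of Experiment 2, and 208 and 277 without replicates 2 and 4 of the MgSO4 arrays. The cause was not tested.

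With the replicate number as a block, 1165 genes differed from the HI arrays, 608 from the MgSO4 arrays and 0 from the 12 h arrays. With the slide as a block the first count was 1065; it could not be fitted for the MgSO4 arrays, since each slide held 1 group. The difference between 3 h and 12 h had 0 called genes in every alternative. For 146 single genes, 1871 values were recomputed, of which 312 lost the call, 21 gained it and 0 reversed; with normexp 51 lost it, among them Mppe1, Cela2a, Gpr35, Pola2, Dusp5 and Junb. Of the 47 lists, 20 kept 1 sign of the median in all settings, and 17 to 27 had a median above 0. The share of called genes with the sign of the naive difference was 80.8% to 84.3% without 1 naive channel. Signal near background limits the ratios of dim genes.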
